A study of Mus musculus with 12 samples.

Results

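The 10 genes described here are genes of keratinocytes, the cells that build the epidermis: Krt1, Krt5, Krt10, Krt14, Krt15, Trp63, Perp, Dsp, Sfn and Krtdap. They were taken by symbol from an array of 22206 probe sets, of which 19572 carried 1 gene symbol. Each of the 10 had 1 probe set, so no choice between probe sets of a gene was needed. Values are log2 signals per probe set, so a difference of 1 is a 2-fold difference.

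The arrays measured RNA from 12 murine neuroblastoma tumors, raised from inoculated neuroblastoma cells in mice of the inbred strain A/J. Of these, 3 tumors each were labelled as treated with high intensity focused ultrasound (HIFU) at 24, 48 and 72 h, and 3 were untreated controls. HIFU breaks tissue with focused sound waves, and the series names mechanical fractionation as its mode. The labels give each time with the treatment, and here it is taken as the delay from HIFU to tumor collection, a reading that is not stated outright. All 12 tumors came as frozen tissue ground to powder. The labels used here give no name for the inoculated cell line, no inoculation site and no age of the mice, and they leave unsaid if each tumor had a mouse of its own. The p-values thus reflect how far these samples scatter, and part of that scatter may be technical.

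The tissue label was checked against genes of the sympathetic neuron lineage, of which 13 of 15 listed were measured. Dbh, which makes noradrenaline, lay between 13.79 and 16.46 in the 9 HIFU tumors and had 11.99, 14.13 and 16.11 in the controls. Th, the first enzyme of catecholamine synthesis, lay between 10.46 and 13.48 in HIFU tumors and had 10.53, 11.99 and 13.76 in the controls. The median of the 13 genes minus their control means ranged from -0.95 to 1.29 in controls. It ranged from -0.35 to 0.75 at 24 h, -0.11 to 1.18 at 48 h and -1.39 to 1.01 at 72 h. The lowest was 72 h replicate 2, where all 13 lay below their control means, by -4.03 to -0.24. Arrays within a group correlated with r between 0.951 and 0.993 over probe sets, and no pair of arrays was identical. The array medians lay between 5.43 and 5.68.

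The epidermis renews itself from a basal layer, whose cells make the keratin pair of Krt5 and Krt14 under the transcription factor p63, encoded by Trp63. Cells that leave the basal layer switch to the pair of Krt1 and Krt10 and later build the cornified envelope. Desmosomes, to which Dsp and Perp contribute, tie the keratin filaments of neighbouring cells together. Neuroblastoma is a tumor of the sympathetic lineage, and these genes are not markers of it. In bulk tissue, fewer cells of a type and less RNA per cell cannot be told apart.

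RefSeq promoters (build GRCm38.p6, 250 bases before to 50 bases after the gene start) were in the sequence table used here for 6 of the 10 genes. Those of Krt10 (chr11:99389315-99389614, minus strand), Krtdap (chr7:30787655-30787954, plus strand), Krt5 (chr15:101712856-101713155, minus strand) and Dsp (chr13:38151044-38151343, plus strand) are shown because these 4 genes peaked on the same pair of arrays. They are written 5′ to 3′ in lower case, and capitals mark matches to the TATA box letters TATAAA or to the AP-1 letters TGANTCA, searched on both strands.
Krt10: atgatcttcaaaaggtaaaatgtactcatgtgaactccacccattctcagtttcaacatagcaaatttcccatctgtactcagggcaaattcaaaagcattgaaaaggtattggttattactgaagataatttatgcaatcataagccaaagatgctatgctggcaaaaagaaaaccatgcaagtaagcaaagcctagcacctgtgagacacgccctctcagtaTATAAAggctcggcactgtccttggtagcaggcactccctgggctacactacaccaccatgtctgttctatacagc
Krtdap: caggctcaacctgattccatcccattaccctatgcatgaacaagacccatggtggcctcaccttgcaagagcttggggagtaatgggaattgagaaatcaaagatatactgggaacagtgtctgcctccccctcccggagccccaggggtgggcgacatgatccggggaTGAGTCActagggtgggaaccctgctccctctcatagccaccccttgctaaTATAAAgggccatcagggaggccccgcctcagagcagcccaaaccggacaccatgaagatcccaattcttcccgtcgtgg
Krt5: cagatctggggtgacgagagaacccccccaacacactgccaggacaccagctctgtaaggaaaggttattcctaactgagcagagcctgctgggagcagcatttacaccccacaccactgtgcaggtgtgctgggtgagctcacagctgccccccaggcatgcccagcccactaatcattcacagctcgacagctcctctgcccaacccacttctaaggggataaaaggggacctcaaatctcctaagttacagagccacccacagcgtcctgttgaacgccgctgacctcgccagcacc
Dsp: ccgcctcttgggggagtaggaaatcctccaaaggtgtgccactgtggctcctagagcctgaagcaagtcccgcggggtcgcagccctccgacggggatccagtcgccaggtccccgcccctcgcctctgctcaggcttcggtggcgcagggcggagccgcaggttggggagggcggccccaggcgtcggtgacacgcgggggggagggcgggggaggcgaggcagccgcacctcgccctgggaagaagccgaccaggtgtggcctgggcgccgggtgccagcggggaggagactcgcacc
TATAAA was found in the promoters of Krt10, 26 bases before the gene start (-26), and Krtdap (-30), and TGANTCA in that of Krtdap (-81), with no overlap between the motifs. Neither was found in those of Krt5 and Dsp, nor in those of Krt14 and Sfn. Of all 32851 promoters of this length in the table, 13.6% held TATAAA and 7.81% held TGANTCA. The GC content was 42% for Krt10, 56.3% for Krtdap, 57.7% for Krt5 and 73% for Dsp. So 4 promoters of genes with a shared pattern differed in these letters and in base composition.

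Most of the keratinocyte genes were high in single tumors rather than in whole groups, with Krt15 and Sfn as exceptions described below. In 48 h replicate 3, 7 of the 10 genes exceeded the highest control by over 1 log2 unit, against 1.88% of all probe sets on that array. In 72 h replicate 2, 6 of the 10 did, against 10.3% of all probe sets. On the other 7 HIFU arrays the count was 0 or 1 of 10. The shares of all probe sets there were 4.79%, 0.887% and 5.35% in 24 h replicates 1, 2 and 3, then 2.64% and 6.44% in 48 h replicates 1 and 2, and 1.3% and 1.9% in 72 h replicates 1 and 3. The genes behind the counts of 1 were Trp63 in 24 h replicate 1, Krt15 in 48 h replicate 1 and Krt10 in 72 h replicate 1. By any margin, 7 of 10 genes exceeded the highest control in 72 h replicate 1, against 23.4% of all probe sets. In 48 h replicate 3, 9 of 10 did (29.1%), and in 72 h replicate 2, 8 of 10 (28.7%). On the remaining HIFU arrays 1 to 4 of 10 did, against 25.7% to 35.3%. Over all arrays, the mean of the HIFU groups lay above control for all 10 genes, against 49.3% of all probe sets.

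**Figure D1:**
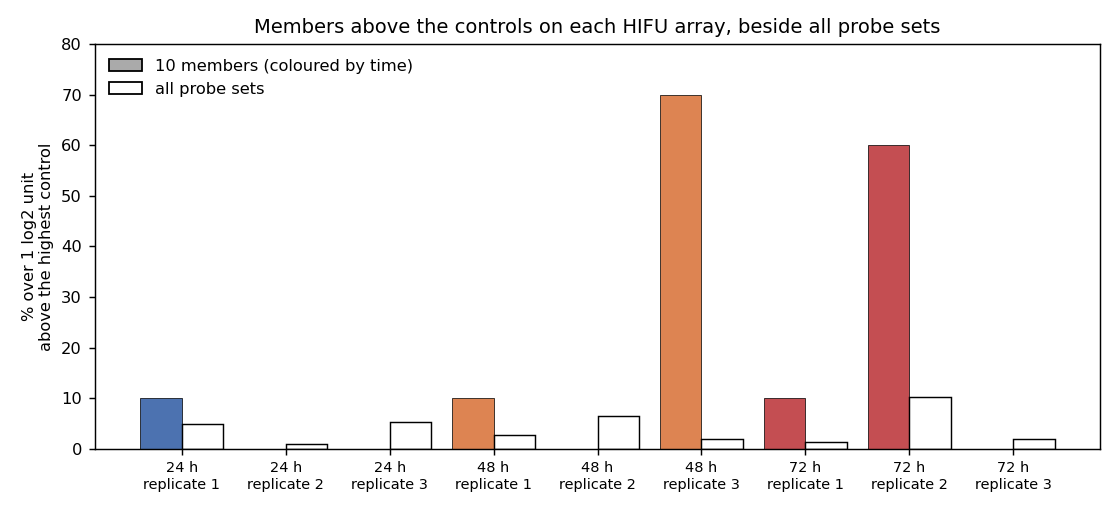
Share of the 10 keratinocyte genes (coloured bars, left of each pair) and of all 22206 probe sets (white bars) that exceeded the highest of the 3 control arrays by over 1 log2 unit, for each of the 9 HIFU arrays. The coloured bars stand out in 48 h replicate 3 (7 of 10 genes, against 1.88% of all probe sets) and in 72 h replicate 2 (6 of 10 genes, against 10.3%).

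The suprabasal genes showed this most clearly. Krt10, the type I keratin of the suprabasal layers, had 4.36, 4.59 and 4.10 in 24 h replicates 1, 2 and 3, then 4.16, 4.34 and 8.56 at 48 h, 5.64, 8.73 and 3.92 at 72 h, and 4.15, 4.36 and 4.59 in the controls. In 48 h replicate 3 it was 18.3-fold and in 72 h replicate 2 20.6-fold above the control mean, while 6 of the 9 HIFU arrays did not exceed the highest control. Krt1, its type II partner, had 2.83, 3.37 and 2.74 at 24 h, 2.66, 3.09 and 5.15 at 48 h, 4.27, 5.65 and 3.08 at 72 h, and 3.16, 3.49 and 3.60 in the controls. The same 3 arrays were its highest, and the groups overlapped at every time. Krtdap, a secreted protein of differentiating keratinocytes, had 4.58, 3.39 and 4.17 at 24 h, 4.34, 4.46 and 7.10 at 48 h, 4.82, 5.68 and 4.08 at 72 h, and 3.95, 4.46 and 3.74 in the controls. It was highest in 48 h replicate 3, 8.28-fold above the control mean, and next in 72 h replicate 2, 3.10-fold above it.

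The junction genes peaked on the same arrays. Dsp encodes desmoplakin, which anchors keratin filaments to desmosomes. It had 3.30, 2.85 and 2.90 at 24 h, 3.93, 3.23 and 5.28 at 48 h, 4.20, 5.18 and 3.24 at 72 h, and 3.48, 2.96 and 3.17 in the controls. It was about equally high in 48 h replicate 3 (4.22-fold above the control mean) and 72 h replicate 2 (3.94-fold). Perp, a membrane protein of desmosomes and a target of p53 and p63, had 3.77, 3.01 and 3.52 at 24 h, 3.18, 3.59 and 6.46 at 48 h, 3.43, 4.78 and 3.88 at 72 h, and 3.06, 3.91 and 3.31 in the controls. Its highest value, in 48 h replicate 3, lay 3.03 above the control mean, and 72 h replicate 2 lay 1.35 above it.

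The basal genes were less uniform. Krt5, the type II keratin of basal cells, had 3.11, 2.71 and 3.23 at 24 h, 3.18, 2.60 and 4.99 at 48 h, 4.01, 5.88 and 3.26 at 72 h, and 3.37, 2.78 and 2.82 in the controls. It followed the suprabasal genes, with 72 h replicate 2 highest at 7.41-fold and 48 h replicate 3 next at 4-fold above the control mean. Krt14, its type I partner, had 4.01, 3.77 and 3.83 at 24 h, 4.63, 4.14 and 5.50 at 48 h, 4.21, 4.42 and 3.55 at 72 h, and 4.27, 4.28 and 3.63 in the controls. It peaked in 48 h replicate 3, 2.71-fold above the control mean, but 72 h replicate 2 exceeded the highest control by 0.14 only, where Krt5 exceeded it by 2.51.

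Trp63 and Krt15 went their own ways. Trp63 had 6.46, 3.89 and 4.79 at 24 h, 4.28, 5.09 and 5.32 at 48 h, 4.04, 7.95 and 4.50 at 72 h, and 4.27, 4.35 and 3.63 in the controls. Its highest arrays were 72 h replicate 2 and 24 h replicate 1, 14.6-fold and 5.19-fold above the control mean; in 24 h replicate 1 none of the other 9 genes exceeded the highest control by over 1. Those arrays also had the highest medians of 18 skeletal muscle genes, 5.58 and 5.47 above the control mean. Over the 12 arrays, as a description, r of Trp63 with the muscle median was 0.664. It was 0.736 with the median of fibroblast genes, 0.724 with that of erythroid genes and 0.621 with that of neutrophil genes. The part of RNA from muscle or these other cells in the Trp63 values was not tested. Krt15, a keratin of basal and hair follicle bulge cells, had 2.97, 3.53 and 3.13 at 24 h, 4.32, 3.91 and 3.98 at 48 h, 3.46, 2.93 and 3.35 at 72 h, and 3.10, 2.88 and 3.14 in the controls. It was the 1 gene of the 10 whose 48 h arrays all lay above all controls, against 10.3% of all probe sets (11.7% lay wholly below), and 72 h replicate 2 lay below the control mean.

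Sfn encodes stratifin, a 14-3-3 protein of keratinocytes and a p53 target. It had 3.24, 3.25 and 3.56 at 24 h, 3.71, 3.60 and 3.10 at 48 h, 3.77, 3.03 and 3.17 at 72 h, and 3.28, 3.01 and 2.97 in the controls. Its values spanned less than 1 log2 unit over the 12 arrays, and it was at the control level in both arrays in which the suprabasal genes peaked. Krt5, Krt15 and Sfn were 3 genes whose mean signal lay in the lowest 25% of probe sets. Whether signals of this size exceed the background of the array is not recorded in the values used here.

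**Figure D2:**
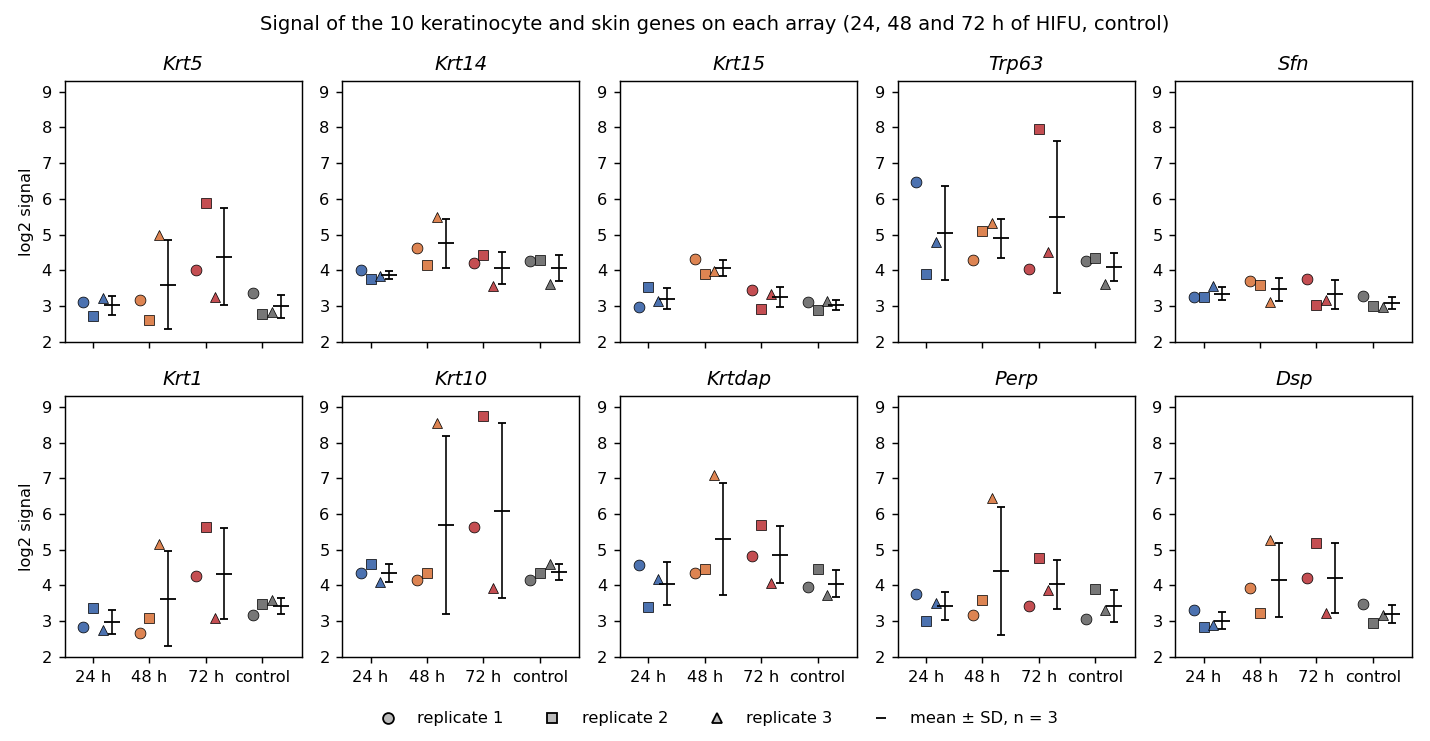
Log2 signal of each of the 10 genes on each array, at 24, 48 and 72 h of HIFU and in controls, with the replicate number as the marker shape and the mean ± SD (n = 3) beside each group. Krt10 reaches 8.56 in 48 h replicate 3 and 8.73 in 72 h replicate 2, while its other 10 arrays lie between 3.92 and 5.64.

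Compared as groups, none of the 10 genes differed from control past the threshold, an adjusted p under 0.05 by limma, at any time. At 24 h 0 of 10 were called, against 0.054% of all probe sets, at 48 h 0 of 10 against 0.0045%, at 72 h 0 of 10 against 0.00901%, and for the mean of the HIFU groups 0 of 10 against 0.018%. At an unadjusted p under 0.05, 0 of 10 were higher at 24 h (3.98% of all probe sets), 1 of 10 at 48 h (5.3%) and 0 of 10 at 72 h (5.85%), and 0 of 10 were lower at each time (5.86%, 8.01% and 5.39% of all probe sets). For the mean of the HIFU groups 1 of 10, Krt15, was higher (6.01%), by 0.47 ± 0.19 SE (adjusted p = 0.295). With a 2-fold change also required, 1 of 10, Krt15, was higher at 48 h, against 2.75% of all probe sets. The F test over the 3 times called 0 of 10 by adjusted p (0.00901% of all probe sets) and 1, Krt15, by unadjusted p (9.34%). Counts of 0 or 1 of 10 are near the shares of all probe sets.

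At 24 h, 5 of the 10 differences from control were above 0 (50% of all probe sets) and the median was 0.0017, against 0 over all probe sets. They ranged from -0.44 ± 0.67 (SE) for Krt1 to 0.96 ± 0.90 for Trp63 (limma adjusted p = 0.859 and 0.757). Without 24 h replicate 1 the Trp63 difference was 0.26. The keratinocyte genes thus had a median at the level of the whole array at this time, and the HIFU and control arrays overlapped for all 10, while 6.84% of all probe sets lay wholly above and 7.68% wholly below the controls.

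At 48 h all 10 differences were above 0, against 50.9% of all probe sets, with a median of 0.88 against 0.01 over all probe sets. Krt10 averaged 5.69 ± 2.49 at 48 h and 4.37 ± 0.22 in controls (SD, n = 3 each), a difference of 1.32 ± 1.21 SE (limma adjusted p = 0.663). Krtdap differed by 1.25 ± 0.67 SE (adjusted p = 0.439), Perp by 0.98 ± 0.71 (adjusted p = 0.568) and Dsp by 0.94 ± 0.53 (adjusted p = 0.461). Most of this came from 48 h replicate 3. Without it the median was 0.34, and the differences of Krt10, Krt5, Perp and Krt1, which were 1.32, 0.60, 0.98 and 0.22 with all arrays, were -0.12, -0.10, -0.042 and -0.54, while those of Krtdap (0.35), Dsp (0.38) and Krt14 (0.33, against 0.70 ± 0.35 SE with all arrays) stayed above 0. Trp63 differed by 0.81 ± 0.90 SE and Sfn by 0.38 ± 0.26 SE, and without that array by 0.60 and 0.57.

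Krt15 did not depend on that array. It averaged 4.07 ± 0.22 at 48 h and 3.04 ± 0.14 in controls (SD, n = 3 each), a difference of 1.03 ± 0.23 SE (limma unadjusted p = 0.000972, adjusted p = 0.202), and 1.07 without 48 h replicate 3. Its adjusted p lay between 0.0202, with array weights, and 0.730, without control replicate 1, over the alternatives tried. Against the 24 h tumors, which averaged 3.21 ± 0.29, it was higher by 0.86 ± 0.23 SE with arrays that did not overlap (adjusted p = 0.999), and the 72 h tumors, at 3.25 ± 0.28, lay below the 48 h tumors, by -0.82 ± 0.23 SE (adjusted p = 0.738). Between times, 0 of 10 genes were called, as were 0 of all probe sets (0%). At an unadjusted p under 0.05, Krt14 and Krt15 were higher at 48 h than at 24 h (2 of 10, against 1.85% of all probe sets), with arrays that did not overlap (3.43%). Krt15 was lower at 72 h than at 48 h (1 of 10, against 2.93%), again without overlap (6.73%). Dsp was higher at 72 h than at 24 h by 1.19 ± 0.53 SE (1 of 10, against 3.22%, and 1.92% with a 2-fold change also required). Krt5 was higher there by 1.37 ± 0.67 SE, with arrays that did not overlap (1 of 10, against 4.53%).

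At 72 h, 9 of the 10 differences were above 0, against 43.4% of all probe sets, with a median of 0.86 against -0.06 over all probe sets. No gene lay wholly above or below the controls (8.99% and 10.1% of all probe sets did). Krt10 averaged 6.10 ± 2.44 at 72 h and 4.37 ± 0.22 in controls (SD, n = 3 each), a difference of 1.73 ± 1.21 SE (limma adjusted p = 0.641). Trp63 differed by 1.41 ± 0.90 SE (adjusted p = 0.598), Krt5 by 1.39 ± 0.67 (adjusted p = 0.465), Dsp by 1.00 ± 0.53 (adjusted p = 0.509) and Krt1 by 0.92 ± 0.67 (adjusted p = 0.660). Krt14 had the same mean at 72 h and in controls, 4.06. Without 72 h replicate 2 the median was 0.37, and the differences were 0.41 for Krt10, 0.19 for Trp63, 0.65 for Krt5, 0.52 for Dsp and 0.26 for Krt1. The smaller differences of Krtdap (0.81), Perp (0.60), Krt15 (0.21) and Sfn (0.24) were 0.40, 0.23, 0.37 and 0.38 without it. Part of what was left came from 72 h replicate 1, where Krt10, Krt5, Dsp and Krt1 lay 1.27, 1.02, 1.00 and 0.85 above their control means, and 72 h replicate 3 was below the control mean for Krt10 and Krt1.

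**Figure D3:**
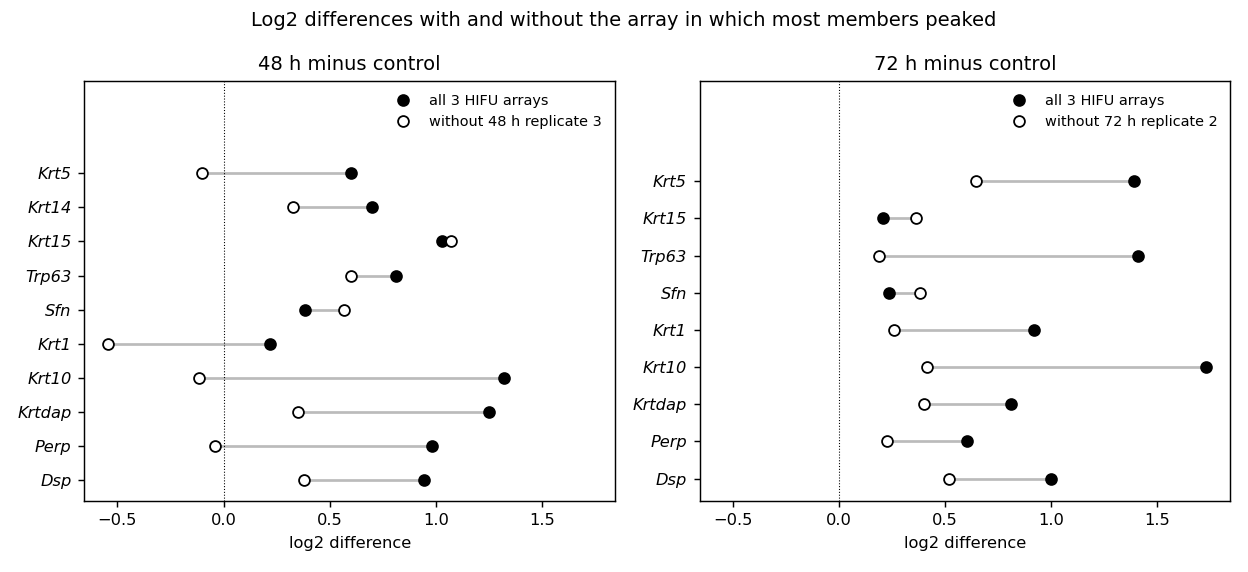
Log2 difference from control of the keratinocyte genes at 48 h (left) and 72 h (right), with all 3 HIFU arrays (filled circles) and without 48 h replicate 3 or 72 h replicate 2 (open circles); Krt14 at 72 h, with no difference, is not drawn. Krt10 moves to -0.12 at 48 h and to 0.41 at 72 h, while Krt15 at 48 h stays at 1.07.

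Other genes of the epidermis were listed with earlier results of these data known. Their counts above the highest control are to be read against 1.88% of all probe sets in 48 h replicate 3 and 10.3% in 72 h replicate 2, and no test between lists was run. Of 29 measured genes of epidermal differentiation, 8 exceeded the highest control by over 1 in 48 h replicate 3 and 4 did in 72 h replicate 2, a share near that of all probe sets on the second of these arrays. By limma 0 of the 29 passed at any time, with medians of 0.03, 0.27 and 0.17 at 24, 48 and 72 h. Asprv1, the protease that processes filaggrin, had 5.09 and 4.82 in 48 h replicates 2 and 3 and 5.71 in 72 h replicate 2, against 3.61, 3.98 and 3.36 in controls, with a difference of 1.24 at 72 h (adjusted p = 0.323). Serpinb5, an epithelial serpin, differed by 1.02 at 48 h (adjusted p = 0.286), Tgm1, which crosslinks the cornified envelope, by 0.68 at 72 h (adjusted p = 0.423) and Sbsn, a secreted epidermal protein, by 0.55 at 48 h (adjusted p = 0.428).

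Among 11 other desmosome genes, 2 and 3 exceeded the highest control by over 1 in 48 h replicate 3 and 72 h replicate 2. Dsg1a, a desmosomal cadherin of the upper epidermis, had 3.08, 3.37 and 5.66 at 48 h, 4.16, 5.78 and 3.05 at 72 h, and 3.04, 2.42 and 2.51 in controls, so its 3 highest arrays came in the same order as for Krt10. Its differences were 1.38 at 48 h and 1.67 at 72 h (adjusted p = 0.422 and 0.411). Dsg1b, which differed by 0.73 at 72 h, is a near-identical copy, so how the 2 probe sets share signal is uncertain. Dsc3, a cadherin of the lower epidermis, was higher by 1.28 at 48 h with arrays that did not overlap the controls (adjusted p = 0.231). Jup, plakoglobin, had 13.18 in 24 h replicate 1 and 12.76 in 48 h replicate 2, its highest arrays, in which Krt1 and Krt10 did not exceed the highest control. By limma 0 of the 11 passed at any time.

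Of 7 measured genes of basement membrane adhesion, 0 exceeded the highest control by over 1 in 48 h replicate 3 or in 72 h replicate 2, which the shares of all probe sets (1.88% and 10.3%) do not set apart in so short a list. At 48 h all 7 lay above control, with a median of 0.40, and 0 passed by limma. Lamb3, a laminin chain of the epidermal basement membrane, differed by 0.94 at 48 h and 0.75 at 72 h (adjusted p = 0.254 and 0.382), and Col17a1, the collagen of hemidesmosomes, by 0.71 and 0.62 (adjusted p = 0.286 and 0.386), each with arrays above all controls at both times. The integrin gene Itgb4 differed by 0.23 and 0.25, and Dst, which encodes a linker of hemidesmosomes, by 0.16 and -0.25. The wound-induced keratins Krt16 and Krt17 differed by 0.57 and 0.05 at 48 h (adjusted p = 0.506 for Krt16 and 0.962 for Krt17).

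Among skin appendages, 3 of 18 genes of hair follicle keratins and sheaths exceeded the highest control by over 1 in 48 h replicate 3, against 1.88% of all probe sets, and 1 of 18 in 72 h replicate 2, against 10.3%. Of 11 sebaceous gland genes, 4 did in 48 h replicate 3 and 3 in 72 h replicate 2. Tchh, trichohyalin of the inner root sheath, had 5.34 in 48 h replicate 3 and at most 3.45 on any other array. Krt79, a keratin of the follicle opening and sebaceous duct, had 4.79 in 48 h replicate 3, 4.24 and 4.30 in 72 h replicates 2 and 3, and 3.23, 3.16 and 3.21 in controls. Krt72, an inner root sheath keratin, was higher by 1.11 at 48 h (adjusted p = 0.202) and Krt75 by 0.62 (adjusted p = 0.350). Of 8 melanocyte genes, 0 exceeded the highest control by over 1 in 48 h replicate 3 and 1 did in 72 h replicate 2. Of 10 simple epithelium genes, 0 and 2 did, and the list median was 0.49 at 48 h. Among them Cldn4, a claudin, differed by 0.43 at 48 h (adjusted p = 0.350). By limma 0 of these 3 lists passed.

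Since Perp and Sfn are p53 targets, 14 other p53 targets were examined. Cdkn1a, the cell cycle inhibitor p21, had 13.98, 12.18 and 12.75 at 24 h, 10.99, 11.99 and 10.88 at 48 h, 11.57, 13.22 and 12.15 at 72 h, and 9.71, 9.67 and 11.44 in controls. In 72 h replicate 2, 5 of the 14 exceeded the highest control by over 1, against 10.3% of all probe sets. In 48 h replicate 3, where Perp was highest, 0 of the 14 did, against 1.88%, which in so short a list does not set them apart. Cdkn1a was at its lowest among the HIFU arrays there. What part p53 had in the Perp and Sfn values was not tested. At 24 h Cdkn1a had the largest difference of the 14, 2.70, with arrays that did not overlap the controls, and the lowest limma adjusted p of the 14 was 0.213. Ccng1, cyclin G1, differed by 2.00 at 24 h, Sesn2, a stress sensor of mTOR signaling, by -0.70 and Fas, a death receptor, by -0.57 (adjusted p = 0.537, 0.439 and 0.533). By limma 0 of the 14 passed at any time.

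Across the 12 arrays, the genes whose signal was most like the mean of the 10 members were found by Pearson r, as a description, among named genes above the lowest 25% of signals. They were Ly6g6c (r = 0.963), Flg2 (0.934), Slamf1 (0.926), P2ry1 (0.904), Kprp (0.903), Krt77 (0.891), Abca13 (0.884) and Smim5 (0.884). Flg2, a filaggrin relative, Kprp, a keratinocyte proline-rich protein, and Krt77, a type II keratin, are genes of the cornified layers or of sweat ducts. Krt77 had 6.41 in 48 h replicate 3 and 4.70 in 72 h replicate 2, while its other arrays lay between 3.15 and 3.93. Slamf1 and P2ry1 are receptors of immune cells and platelets. Without 48 h replicate 3 and 72 h replicate 2, r over the other 10 arrays was 0.768 for Ly6g6c and 0.673 for Slamf1. It was 0.514 for P2ry1, 0.487 for Smim5, 0.483 for Krt77, 0.459 for Abca13, 0.303 for Flg2 and 0.245 for Kprp. Each r was lower than over all 12 arrays, so part of the likeness rests on both arrays, most of all for Flg2 and Kprp. Within the 10 genes, r with the mean of the other members was 0.947 for Krt10, 0.940 for Dsp and 0.920 for Krtdap, but 0.565 for Trp63, 0.084 for Krt15 and -0.24 for Sfn. Over the 10 arrays without that pair it was 0.830 for Krtdap, 0.719 for Dsp, 0.414 for Krt10, -0.051 for Trp63, 0.087 for Krt15 and 0.620 for Sfn.

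In other cell types the peak arrays were alike only in part: both had high neutrophil and erythroid medians for their time, but they differed in fibroblast and muscle medians. Of all arrays, 72 h replicate 2 had the highest medians of the neutrophil, erythroid, fibroblast and muscle lists. Among the 48 h arrays, replicate 3 had the highest neutrophil and erythroid medians and the lowest fibroblast and muscle medians. The median of 16 neutrophil and granulocyte precursor genes lay 4.78 above the control mean in 48 h replicate 3 and 8.66 above it in 72 h replicate 2, against 5.998 and 5.06 in 72 h replicates 1 and 3. In 72 h replicate 3, with a neutrophil median of 5.06, 0 of the 10 keratinocyte genes exceeded the highest control by over 1. Over all 12 arrays, which include both peak arrays, r with the neutrophil median was 0.833 for Krt5, 0.751 for Dsp, 0.739 for Krt1 and 0.728 for Krt10, as a description. For the other genes r was 0.636 (Krtdap), 0.621 (Trp63), 0.563 (Perp), 0.276 (Krt14), -0.013 (Sfn) and -0.018 (Krt15). The summed linear signal of the neutrophil list, as log2, ranged from 13.4 to 15.41 at 24 h, 14.36 to 16.19 at 48 h, 16.74 to 19.93 at 72 h and 8.29 to 9.07 in controls. Mpo, the granule peroxidase of precursors, had 10.49 in 48 h replicate 3 and 11.55, 13.88 and 11.39 at 72 h, and at most 3.81 on the other 8 arrays.

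The fibroblast median (10 genes) lay 1.48 above the control mean in 48 h replicate 3 and 6.60 in 72 h replicate 2, and the muscle median 3.03 and 5.58. The neuroblastoma median lay 1.18 above and 1.39 below (-1.39). The highest muscle and fibroblast values at 48 h were in replicate 2 (4.61 and 5.60), where 0 of the 10 keratinocyte genes exceeded the highest control by over 1. The erythroid median lay 1.71 above in 48 h replicate 3 and 5.10 in 72 h replicate 2, against 1.91 in 72 h replicate 1. Over the 12 arrays, r with it was 0.902 for Krt5, 0.828 for Krt1, 0.815 for Krt10 and 0.774 for Dsp. It was 0.724 for Trp63, 0.610 for Krtdap, 0.541 for Perp, 0.329 for Krt14, -0.130 for Krt15 and -0.164 for Sfn. Both peak arrays are among the 12, and r with these cell type medians was not computed without them. What part the amounts of these tissues had in the keratinocyte values was not tested.

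**Figure D4:**
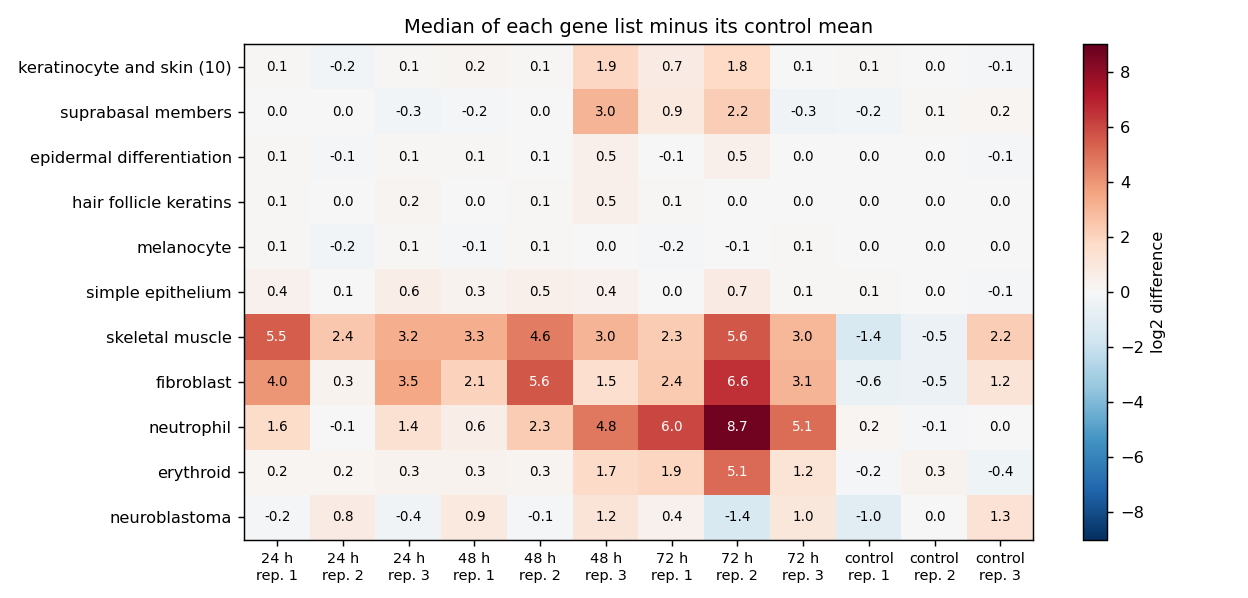
Median over the genes of each list of the log2 signal minus the control mean, for each array, with red above and blue below 0. The keratinocyte row is high in 48 h replicate 3 (1.87) and 72 h replicate 2 (1.80), the neutrophil row is high in those and in 72 h replicates 1 and 3, and the muscle and fibroblast rows are high in other arrays as well.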

How the data were processed

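The 12 RNA samples were run on Affymetrix Clariom S mouse arrays, per the labels. The authors deposited log2 signals per probe set; the log base was read from the value range, while summarization, background correction and genome build were not given in the sources used here. The software, per the submitters' processing notes, was Transcriptome Analysis Console 4.0. No scaling was added. Arrays give no read depth, and 3 per group limit the precision. The array medians are nearly equal, with the highest, 5.68, in 72 h replicate 2. Whether the arrays had been scaled to each other is not stated, and such scaling would remove shifts common to all genes.

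Probe sets were named through the platform annotation and gene number in a RefSeq table (GRCm38.p6): 19572 with 1 symbol, 0 with several and 2634 with none. The members, lists and tests were chosen with earlier results of these data known. Listed genes without a named probe set, such as Krt6a and Flg, were not analysed here.

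limma 3.58.1 (R 4.3.3) fitted a mean per group to all 12 arrays (prior degrees of freedom 3.37), and was tested on simulated data. Tests were two-sided, with Benjamini-Hochberg adjustment over 22206 probe sets and a threshold of 0.05. Errors are limma SE or SD over arrays. All 10 members are named, of each companion list up to 4 genes by the F test (genes of other cell types only beside a result), and the 8 most alike. Alternatives were a replicate block, a filter, quantile and median scaling, trended variance, array weights, only the groups compared, another threshold, averaging probe sets per gene, and fits without each array in turn.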

Additional observations from a re-analysis of the deposited data

Results flagged for a closer look

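Krt14 lay below its control mean in all 3 tumors at 24 h and above it in all 3 at 48 h, a difference of 0.887 between those times. The difference itself, tested with limma, did not pass (SE 0.35, unadjusted p = 0.0288, adjusted p = 0.999), and it was 0.515 without 48 h replicate 3. The gap tests for a single outlying array, run over the 9 HIFU arrays per gene, singled out no value; the highest share of the range taken by a gap was 0.487, for Perp in 48 h replicate 3. With a pair of high arrays, as for Krt10, such a gap is small (0.035). Groups of 3 were not tested in this way.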

How the results depend on the processing

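The count of members past the threshold was 0 in all 7 comparisons and in the F test. It stayed 0 under each scaling, trended variance and each fit without 1 array (0 to 0). The filter also gave 0, but it left 7 of the 10 members and took out Krt5, Krt15 and Sfn. Averaging of probe sets per gene could not change the count, since each member had 1 probe set. The fit of only the groups compared was run for the 6 comparisons of 2 groups, with 0 in each. With array weights it was 1 (Krt15) at 48 h against control (adjusted p = 0.0202), 1 for the mean of the HIFU groups and 1 in the F test, while all called probe sets numbered 944, 3787 and 1488, against 1, 4 and 2. With an unadjusted p under 0.05 and a 2-fold change it was 1 at 48 h against control (Krt15) and 1 for 72 h against 24 h (Dsp). A replicate block left the count at 0 and the medians at 0.00167, 0.878 and 0.863; calls over all probe sets numbered 3, 0, 1 and 1 with it at 24, 48 and 72 h and over the HIFU groups, against 12, 1, 2 and 4. Of 18 pairs of arrays with the same number, 4 had deviations from their group means with r over 0.1. These r ranged from -0.608 to 0.625. With 3 arrays per group, they cannot tell whether the number stands for a pairing or a batch. Without 1 array the median ranged from -0.0917 to 0.095 at 24 h, 0.337 to 1.1 at 48 h, 0.374 to 1.34 at 72 h and 0.392 to 0.704 over the HIFU groups. At 72 h the median was 0.308 with array weights, 0.722 with median centring and 0.769 with quantile scaling, against 0.863. Without 48 h replicate 3 and 72 h replicate 2 together, an alternative chosen after seeing the data, the medians were 0.337 at 48 h, 0.374 at 72 h and 0.213 over the HIFU groups. Both with 48 h replicate 3 alone left out and with this pair left out, the 48 h differences of Krt1 (-0.542), Krt5 (-0.1), Krt10 (-0.117) and Perp (-0.0417) turned below 0; leaving out other arrays they reached 0.703, 1.09, 2.08 and 1.6. The 24 h median also crossed 0 with quantile scaling (-0.104), median centring (-0.0617) and the filter (-0.0167). Signals near the low end of the scale limit what can be seen of these genes.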

Other observations

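Of 11 sebaceous gland genes, 4 exceeded the highest control by over 1 in 48 h replicate 3 (1.88% of all probe sets) and 3 in 72 h replicate 2 (10.3%), and 0 passed by limma at any time. Far2, an enzyme that makes fatty alcohols for wax, had 3.26, 3.58 and 5.74 at 48 h, 4.66, 7.05 and 4.49 at 72 h, and 3.36, 4.03 and 3.36 in controls, so its highest arrays were the same as for Krt10, and it was higher by 1.82 at 72 h with arrays that did not overlap the controls (limma adjusted p = 0.382). Scd1, a desaturase of sebocytes and adipocytes, was highest in 72 h replicate 2 (15.79) and 48 h replicate 2 (15.45), and had 9.27, 10.95 and 12.32 in controls. Adipoq, the adipocyte hormone, was highest in the same arrays as Scd1, with 8.78 and 7.84.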
